A study of Mus musculus with 9 samples.

Results

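Ependymal cells were taken from a single-cell RNA sequencing table of mouse brain as the cells with 3 or more unique molecular identifiers (UMIs, tags that let each captured transcript be counted once) of Tmem212 and Ccdc153 summed. This gave 1389 cells among the 21076 cells of 6 libraries (6.59%, exact 95% binomial interval 6.26 to 6.93%), out of 29571 cells in the whole series. The rule used measured values of both genes, so their levels, and any contrast between these cells and other cells, are given as description and without a test. The 9 libraries of the table are numbered by their first column, and libraries 4 to 6 share the start of their code, as do libraries 7 to 9. Libraries 1 to 3 held 0 UMIs of either gene in 2575, 3175 and 2745 cells, which allows a share of up to 0.117%, 0.0945% and 0.109% of cells with a UMI.

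The study profiled brainstem, cortex and hypothalamus of male C57BL/6 mice (C57BL/6J in the methods of the study) aged 9 to 11 weeks, left to sleep normally (NS), kept awake for 12 h (sleep deprived, SD), or kept awake and then allowed recovery sleep (RS), with all brains taken at zeitgeber time 12. The labels give the recovery as both 12 h and 24 h. Each combination of region and group is 1 library made from 3 pooled mice, with no replicate; cells were freed with papain, cleared of myelin with beads and captured in droplets. Library 7 is brainstem NS, because all 1999 barcodes of a partial list of brainstem NS cells lay in it, against 5 to 13 in each other library. No other library is assigned to a region or a group here, and all are named by number. The comparison between libraries 4 to 6 and libraries 7 to 9 is therefore one between sets whose conditions, except that of library 7, are not known here. A difference between the sets cannot be told apart from one of batch, dissection or capture.

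Ependymal cells form a ciliated epithelium that lines the ventricles of the brain. Each mature cell carries a tuft of motile cilia that beat to move cerebrospinal fluid, and each cilium is built on an axoneme, a ring of microtubule doublets around a central pair, with dynein arms as motors and radial spokes and nexin links as the structures that shape the beat. The transcription factor FOXJ1 and factors of the RFX family switch on the genes of this machinery, and RFX proteins bind a site known as the X-box.

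The promoters of the leading genes were read because the members were chosen by genes of the cilium. The motif GTTGCC, the 5′ part of the X-box, was searched on both strands of RefSeq windows of GRCm38.p6 that run from 250 bases before to 50 bases after each start. It was found in a window of 48 of the 99 genes of the axoneme and intraflagellar transport lists that had a window (48.5%), against 15.1% of the 13185 genes of the count table with a window and 14.1% of all 27025 RefSeq genes with one. The full X-box, a longer motif that begins with the same letters, was found for 3 of these 99 genes (3.03%) and 0.402% of the genes of the table. The forkhead motif TGTTTAC was found for 5 of the 99 (5.05%) and for 3.29% of the genes of the table. Of the 12 genes with the highest level in ependymal cells relative to the other cells, 8 had a window and 5 of these held GTTGCC. A match of these letters is a description of the sequence and not a measured binding site. The 250 bases before the start are shown for 3 leading genes that held the motif, with GTTGCC in capitals, and for Tmem212, a gene of the rule that held none of the 3 motifs; each is read 5′ to 3′ along the strand of its gene.

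Ccdc153, chr9:44240427-44240676 (plus strand): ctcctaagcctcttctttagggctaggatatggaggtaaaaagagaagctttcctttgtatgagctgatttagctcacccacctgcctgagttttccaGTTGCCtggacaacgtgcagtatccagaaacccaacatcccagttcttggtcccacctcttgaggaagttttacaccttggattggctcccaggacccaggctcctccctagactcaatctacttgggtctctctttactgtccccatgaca
1700012B09Rik, chr9:14771031-14771280 (minus strand): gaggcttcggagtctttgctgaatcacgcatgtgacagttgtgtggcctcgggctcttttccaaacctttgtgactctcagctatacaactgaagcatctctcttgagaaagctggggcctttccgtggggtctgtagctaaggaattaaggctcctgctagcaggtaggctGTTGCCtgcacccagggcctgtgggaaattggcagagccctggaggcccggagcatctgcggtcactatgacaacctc
Dynlrb2, chr8:116504765-116505014 (plus strand): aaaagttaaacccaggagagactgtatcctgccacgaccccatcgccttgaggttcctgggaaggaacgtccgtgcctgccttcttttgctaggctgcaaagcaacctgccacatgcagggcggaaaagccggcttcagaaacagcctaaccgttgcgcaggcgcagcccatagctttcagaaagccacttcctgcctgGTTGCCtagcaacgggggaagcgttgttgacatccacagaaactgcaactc
Tmem212, chr3:27896369-27896618 (minus strand): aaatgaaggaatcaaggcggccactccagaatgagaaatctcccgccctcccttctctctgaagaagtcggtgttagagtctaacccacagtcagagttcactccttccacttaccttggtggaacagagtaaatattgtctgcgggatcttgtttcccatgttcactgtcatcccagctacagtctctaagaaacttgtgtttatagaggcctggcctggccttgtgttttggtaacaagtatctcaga

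The motif began 152 bases before the start in Ccdc153, a coiled-coil protein of the cilium, 78 bases before it in 1700012B09Rik, and 51 bases before it in Dynlrb2, a light chain of dynein. Efcab10 and 1110017D15Rik, also among the leading genes, held it too. The gene bodies lie at chr9:44240677-44247306 for Ccdc153, chr9:14756592-14771049 for 1700012B09Rik, chr8:116505015-116515915 for Dynlrb2 and chr3:27866065-27896391 for Tmem212, all protein-coding genes of GRCm38. The starts of the windows of 1700012B09Rik and Tmem212 lie inside these gene bodies, so their printed stretches overlap them, and each distance is counted from the start of the window's own annotation.

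The share of ependymal cells differed between libraries by more than counting error, and most in library 9. There were 112 cells in library 4 (3.21%, 2.65 to 3.85%), 141 in library 5 (5.21%, 4.40 to 6.12%) and 171 in library 6 (4.37%, 3.75 to 5.05%). Library 7 held 143 (3.83%, 3.24 to 4.50%), library 8 held 264 (7.50%, 6.65 to 8.42%) and library 9 held 558 (15.03%, 13.9 to 16.2%). By this count library 7 lay within the range of libraries 4 to 6, while libraries 8 and 9 lay above it. The intervals cover counting error only, and dissection and dissociation of each pool were not measured. A threshold on UMIs also depends on depth: ependymal cells had median totals of 910, 661, 1798, 1882, 1692.5 and 1546 UMIs in libraries 4 to 9, and the other cells 868, 559, 1039, 899.5, 711 and 966. After each cell was thinned to 500 UMIs, with 1974 shallower cells left out (1149 of them in library 5), the shares were 1.81%, 3.66%, 2.48%, 1.89%, 5.18% and 6.76%. Libraries 8 and 9 had the highest shares before and after thinning, but the gap between them narrowed from 7.50% against 15.03% to 5.18% against 6.76%. Among cells of at least 1000 UMIs the shares were 23.0% in library 8 and 24.8% in library 9, and library 7, at 7.83%, lay above the 3.65% to 7.46% of libraries 4 to 6. In library 9, 309 members also held 3 or more UMIs of choroid plexus markers, against 0 to 15 in each other library. Without the members that held as many of non-glial brain, vascular or choroid plexus markers, removed from both counts, the shares of libraries 8 and 9 were 6.03% and 6.13%. Members fell from 264 to 209 in library 8 and from 558 to 206 in library 9, where the 309 members with choroid plexus markers are taken out by construction. Other cells with such markers were kept. This setting was chosen after seeing the data, and is named below by its non-glial brain or vascular classes, choroid plexus included. The size of the excess of library 9 over library 8 thus depended on the setting.

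**Figure D1:**
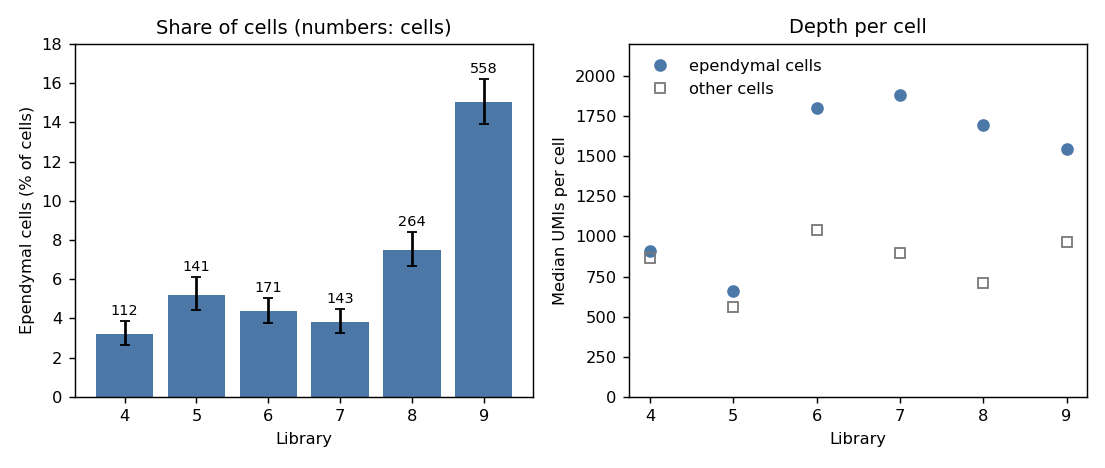
Left, ependymal cells as a percentage of all cells of libraries 4 to 9, with exact 95% binomial intervals as error bars and the number of ependymal cells above each bar. Right, median UMIs per cell in ependymal cells (circles) and other cells (squares); library 9 stands at 15.03% of cells, and ependymal cells had the higher median in each of the 6 libraries.

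Of the cells of these libraries, 18818 had 0 UMIs of the rule's genes and 711 had 1. Just outside the threshold, 158 cells had 2 UMIs of both genes, and 138 cells just inside it had 3, in libraries 4 to 9 respectively 7, 41, 14, 23, 17 and 56 cells against 20, 32, 14, 17, 8 and 47. A sum over 86 axoneme genes, which leaves out Ccdc153 and Tmem212, took 0.0634% of the UMIs in the cells with 0 UMIs, 0.228% in those with 1, 1.31% in those with 2, and from 1.90% to 2.19% in the classes with 3 or more. Rarres2 was found in 77.2% of the cells with 2 UMIs and in 88.7% of the 284 cells with 3 or 4. Pooled over the libraries, the cells with 2 UMIs, whose median total was 867 UMIs, thus lay between the members and the rest, but in library 5 their axoneme sum was 2.32%, against 2.26% in its members. In the other libraries it was 1.04% to 1.75%, below the members of the same library.

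The label was set beside the study's own in library 7, where 1999 barcodes carry a cell type given with the study. All 66 members among them were named ependymal cells (EPC), and the other 77 members of library 7 were not listed. The study named its cell types from marker expression in the same cells, so this match is not an independent check. A further 22 cells of that name fell below the threshold, 5 of them with 0 UMIs of both genes, and their axoneme sum was 1.54%, against 2.17% in the EPC above the threshold and 0.0357% in the other listed cells. Their median depth was 1290 UMIs, against 1838. Over all libraries, 549 barcodes occurred in more than 1 library; 43 members carried such a barcode, and 1 barcode marked a member in 2 libraries.

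The 13 ependymal markers that the rule did not use were each at least 2 times as high in ependymal cells as in the other cells pooled over the libraries, beside 29.8% of all 4638 genes that reached 50 CPM in a library. Of the 13, 12 were at least 10 times as high, beside 2.82% of all these genes (10 CPM added to both). CPM scales the UMIs of a gene, summed over the cells of a library, to a total that is the same for every library. Tmem212, chosen by the rule, stood at 2580, 3475, 3225, 2778, 3308 and 2698 CPM in libraries 4 to 9, and Ccdc153 at 3153, 3247, 3115, 2384, 2513 and 2199 CPM. Rarres2, which encodes the secreted chemoattractant chemerin, stood at 4427, 4625, 4610, 4172, 4142 and 3469 CPM, against 35.2 to 219 CPM in the other cells. Its level was thus high in all 6 libraries, and lowest in library 9 (exact Poisson interval 3360 to 3581). A UMI of Rarres2 was found in 96.1% of ependymal cells and 9.70% of other cells, and at a common 500 UMIs in 81.8% and 5.69%.

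**Figure D2:**
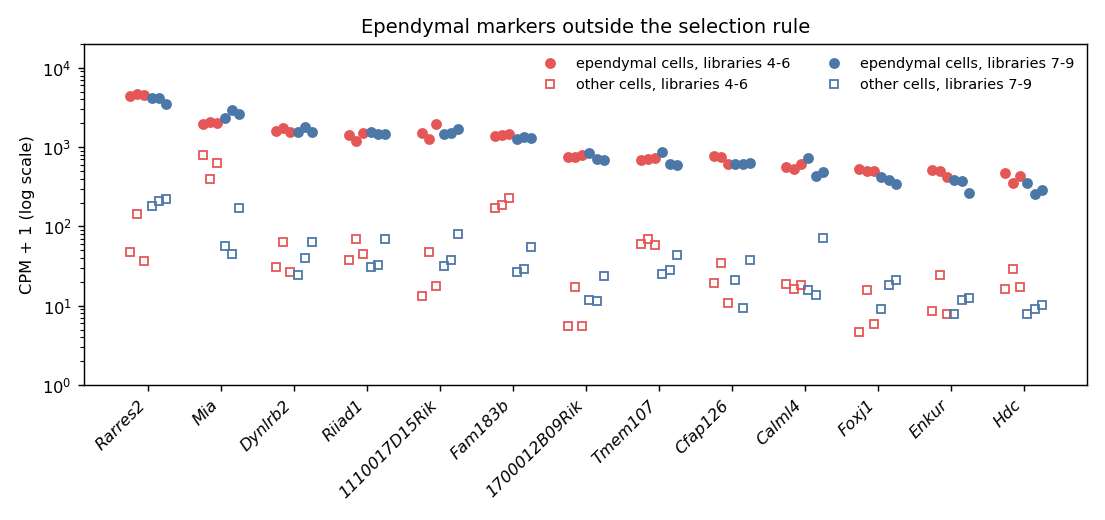
Levels of 13 ependymal markers that the rule did not use, in CPM + 1 on a log scale, in libraries 4 to 9 from left to right within each gene; circles stand for ependymal cells and squares for other cells. Rarres2 lies between 3469 and 4625 CPM in ependymal cells and at 219 CPM or less in other cells.

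Markers of other cell types were set beside the other cells of the same library. The 10 tanycyte markers summed to between 125 and 240 CPM, above the other cells (59.0 to 208 CPM) in each library, and Rax, the homeobox factor of tanycytes, reached 13.1 CPM at most. The 5 measured oligodendrocyte markers summed to between 13.1 and 41.6 CPM, and Mobp was at 0. The astrocyte markers summed to 1022 to 1671 CPM, against 332 to 2095 CPM in the other cells, and 535 members (38.5%) held 3 or more UMIs of them. The choroid plexus markers summed to 105 to 301 CPM in libraries 4 to 8, against 21.7 to 135 CPM in the other cells, and to 1786 CPM in library 9. There Ttr, the thyroxine carrier that the choroid plexus secretes, had 1678 CPM in ependymal cells and 33983 CPM in the other cells, with a UMI in 90.3% of ependymal and 77.7% of other cells and medians of 3 and 1 UMIs. Its part in the ependymal values of library 9 was not tested.

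Transcripts of the motile cilium formed the core of the profile. The 12 genes with the highest ratio of ependymal to other cells were Tmem212, Ccdc153, Meig1, 1110017D15Rik, 1700012B09Rik, 1700016K19Rik, Dynlrb2, Gm10714, 1700001C02Rik, Efcab10, Rarres2 and Rsph1. The 86 axoneme genes took 2.36%, 2.26%, 2.28%, 2.15%, 2.08% and 1.98% of the UMIs of ependymal cells in libraries 4 to 9, against 0.0542% to 0.127% in the other cells. Each of the 1389 cells held at least 1 such UMI, and the median per cell was 2.46%, 2.43%, 2.32%, 2.13%, 2.11% and 2.01%. Of the 77 axoneme genes that reached 50 CPM in a library, 35 were 10-fold or more above the other cells (10 CPM added), against 131 of all 4638 genes tested (2.82%). Since the cells were chosen by cilium genes, this enrichment is a description.

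**Figure D3:**
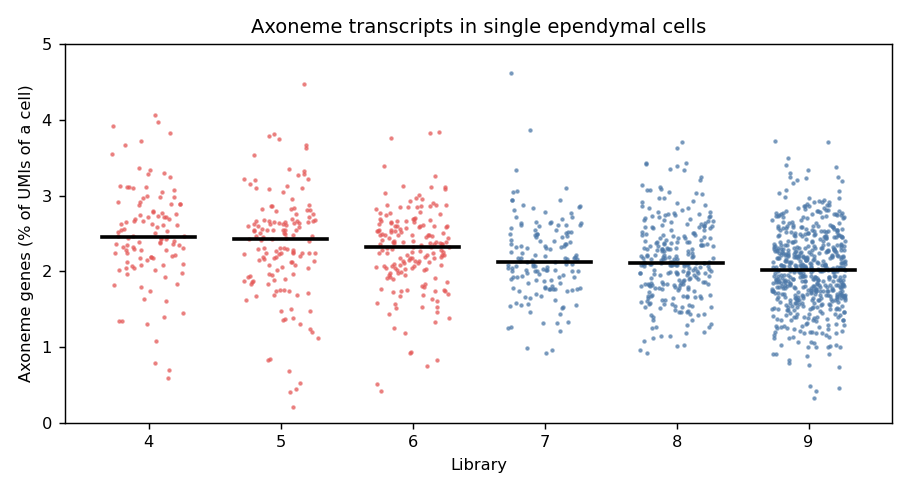
Share of the UMIs of each ependymal cell that came from 86 axoneme genes, by library; each point is a cell (red in libraries 4 to 6, blue in libraries 7 to 9) and the black bar is the median of the library. Medians run from 2.01% in library 9 to 2.46% in library 4, with wide spread within each library.

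Among the regulators of ciliogenesis, Foxj1, the master factor of motile cilia, stood at 525, 496, 495, 418, 383 and 340 CPM in libraries 4 to 9. Each of libraries 4 to 6 was above each of libraries 7 to 9, as for 17.7% of all tested genes, although the interval of library 5 (391 to 621) overlapped that of library 7 (358 to 486). Myb, which acts early in multiciliated cells, stood at 148, 84.9, 150, 169, 148 and 143 CPM with no order between the sets, against 0.508 to 3.70 CPM in the other cells. Rfx3, a factor of the X-box family, stood at 120, 71.9, 131, 144, 124 and 127 CPM, and Rfx2, of the same family, at 37.8 to 52.3 CPM. Trp73, which encodes the multiciliogenesis factor p73, ran from 26.9 to 76.5 CPM, highest in library 4. For Foxj1 the intervals of the highest library (425 to 641) and the lowest (307 to 377) did not overlap.

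Dynlrb2, among the motors of the cilium, stood at 1612, 1744, 1557, 1567, 1775 and 1537 CPM, with overlap between the sets. Dnah6, a heavy chain of the inner dynein arms, stood at 279, 196, 233, 232, 270 and 203 CPM, and Dnali1, a light intermediate chain of the inner arms, at 339, 235, 290, 205, 285 and 219 CPM. Dnah9, a heavy chain of the outer arms, was 175, 157 and 143 CPM in libraries 4 to 6 and 117, 118 and 103 CPM in libraries 7 to 9, without overlap. All 21 dynein arm genes and 7 of 10 measured dynein assembly factors reached 50 CPM, and each of them was 2-fold or more above the other cells, as were 29.8% of all tested genes; the cells were chosen by cilium genes, so this is a description. Among the assembly factors, Zmynd10 stood at 92.9 to 164 CPM.

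Of the radial spoke and central pair genes, Rsph1, a protein of the spoke head, stood at 1284, 1169, 1189, 1259, 937 and 968 CPM, and Rsph4a, of the same head, at 219, 242, 159, 210, 201 and 193 CPM. Spag17, of the central pair, was 268, 176 and 221 CPM in libraries 4 to 6 and 161, 163 and 129 CPM in libraries 7 to 9, also without overlap, but the sets overlapped with a minimum of 5 UMIs of the rule's genes. Hydin, also of the central pair, lay between 94.4 and 149 CPM. Of 16 measured genes of this list, 14 were tested and 9 were 10-fold or more above the other cells, beside 2.82% of all tested genes, again in cells chosen by cilium genes. Among the genes of the doublets, rulers and nexin links, Tekt4, a tektin filament protein of the doublet, stood at 153, 170 and 168 CPM in libraries 4 to 6 against 122, 89.3 and 72.0 CPM in libraries 7 to 9. Meig1, known from sperm formation, had 1323, 1313 and 1394 CPM against 888, 946 and 1007 CPM.

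A gene was counted as separating the sets where its lowest library in one set was at least 2 times its highest library in the other, with 10 CPM added to each, among the 4638 genes of at least 50 CPM in 1 or more libraries. By this count 13 genes (0.28%) were higher in libraries 4 to 6 and 41 (0.884%) in libraries 7 to 9, or 1.16% in either direction. None of the 77 axoneme genes, the 28 tested genes of intraflagellar transport and the BBSome, or the 6 tested regulators of ciliogenesis was among them, a count that is near the overall share and sets none of these lists apart. The axoneme genes' difference, libraries 4 to 6 minus 7 to 9 by medians, had a median of 0.19 on the log2 scale and ran from −0.36 to 0.84. It was above 0 for 60 of 77, against 60.5% of all tested genes, whose own median was 0.11. Relative to that shift, 49 of the 77 (63.6%) lay higher in libraries 4 to 6. The profiles were alike over all tested genes: 95.8% differed by less than 2-fold between the medians of the sets. Pearson's r of log2(CPM + 10) across these genes was 0.888 to 0.957 between libraries of the same set (6 pairs) and 0.845 to 0.888 between sets (9 pairs), while it was 0.596 to 0.733 between ependymal and other cells of the same library. These correlations are across genes, which are not independent replicates, and the depth of each library enters them.

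**Figure D4:**
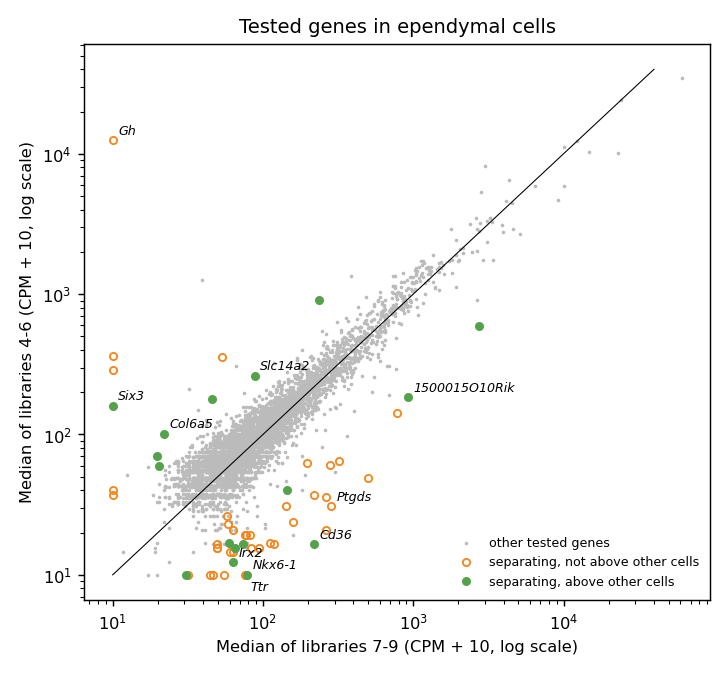
Each point is 1 of the 4638 tested genes, at the median level of libraries 7 to 9 (x) and of libraries 4 to 6 (y) in ependymal cells, both in CPM + 10 on log scales; the line marks equal levels. Filled green points are the 17 separating genes that were above the other cells in each library of the higher set, and open orange points are the other 37.

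A separating gene may owe its counts to transcripts of other cells in the suspension, so each was set beside the other cells of its libraries. Among the other cells, 115 of 3451 tested genes (3.33%) separated in favour of libraries 4 to 6 and 434 (12.6%) in favour of libraries 7 to 9. Of the 13 genes higher in ependymal cells of libraries 4 to 6, 7 also separated the other cells, and of the 41 higher in libraries 7 to 9, 30 did. In each library of the higher set, 7 of the 13 and 10 of the 41 were above the level of the other cells.

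Some genes of regional identity were among those that separated. Six3, a homeobox factor of the anterior forebrain, had 142 (92.8 to 208), 150 (95.2 to 225) and 198 (158 to 245) CPM in libraries 4 to 6 and 0 UMIs in libraries 7 to 9. Over the sets it was at least 122-fold higher in libraries 4 to 6, against the limit of 3 counts in the 2087974 UMIs of ependymal cells of libraries 7 to 9, and at least 57.9-fold without library 9. Six3 reached 50 CPM through libraries 4 to 6 alone. The other cells of libraries 4 to 6 also held Six3, at 108, 75.7 and 122 CPM. Nkx2-1, a factor of the ventral forebrain, was at 32.8, 13.1 and 25.3 CPM in libraries 4 to 6 and at 0 in libraries 7 to 9, but did not reach the level for testing. The other 4 tested forebrain position factors, Nr2f1, Nr2f2, Meis2 and Zic1, did not separate: Nr2f1, a nuclear receptor, stood at 203 to 336 CPM and Nr2f2, its relative, at 51.5 to 161 CPM over the 6 libraries. Of all 26, 7 were at 0 in all ependymal cells, Emx2 and Fezf2 among them.

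Of the 5 tested factors of the hindbrain and spinal list, Nkx6-1, Irx2 and En1 were higher in libraries 7 to 9. Nkx6-1, a ventral homeobox factor, had 0, 0 and 9.21 CPM in libraries 4 to 6 and 68.5 (45.5 to 99.0), 110 (84.6 to 140) and 59.3 (45.8 to 75.6) CPM in libraries 7 to 9. Irx2, an Iroquois factor, had 5.47, 0 and 2.30 CPM against 61.1, 53.2 and 41.0 CPM. En1, a factor of the midbrain and hindbrain boundary, had 0 UMIs in libraries 4 to 6 and 14.7, 68.7 and 21.0 CPM in libraries 7 to 9, at least 8.48-fold higher over the sets against the limit of 3 counts. This bound was 4.95-fold without library 8 and 3.70-fold without library 6. All 3 genes were above the other cells of their own library in libraries 7 to 9, where Nkx6-1 stood at 10.6 to 16.1 CPM, Irx2 at 1.73 to 10.5 CPM and En1 at 0.495 to 14.0 CPM. They reached 50 CPM through libraries 7 to 9 alone, so their number is no measure of their list. Irx3 and Irx5, of the same family as Irx2, did not separate: Irx5 stood at 92.9, 84.9, 82.9, 100.3, 75.5 and 78.4 CPM. En1 varied within its set. Its log2 difference was −1.63, and −1.87 without the members that held 3 or more UMIs of non-glial brain or vascular markers, where it no longer separated the sets although the difference was larger.

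**Figure D5:**
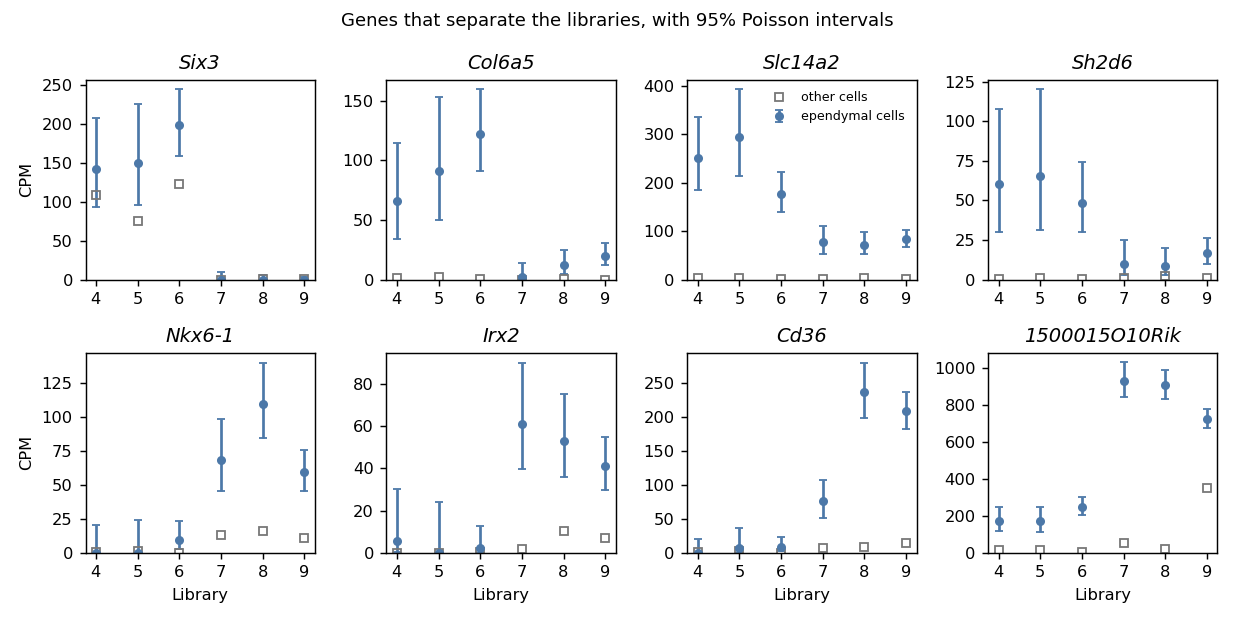
Levels in CPM of 8 genes that separate libraries 4 to 6 from libraries 7 to 9, by library, in ependymal cells (circles, with exact 95% Poisson intervals) and in other cells (squares, no interval). Six3 is at 0 in libraries 7 to 9 and lies at 142 to 198 CPM in libraries 4 to 6, while Cd36 runs from 0 to 9.21 CPM and from 75.8 to 237 CPM.

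Cd36 and Slc14a2, neither on the list of membrane and transport genes, separated as well. Cd36, a scavenger receptor and fatty acid transporter, had 0, 6.53 and 9.21 CPM in libraries 4 to 6 and 75.8 (51.5 to 108), 237 (199 to 280) and 208 (182 to 237) CPM in libraries 7 to 9, with library 7 below the other 2. Other cells of libraries 7 to 9 held 7.18 to 13.8 CPM of Cd36. Cd36 reached 50 CPM through libraries 7 to 9 alone, so its call is a description. Slc14a2, a urea transporter, had 251 (184 to 335), 294 (214 to 393) and 177 (140 to 222) CPM in libraries 4 to 6 against 78.2 (53.5 to 110), 72.1 (52.0 to 97.5) and 83.0 (66.8 to 102) CPM, and at most 2.64 CPM in other cells. It passed the 2-fold limit narrowly, at 2.02, and fell below it with totals that leave out hormone, hemoglobin and mitochondrial genes. Aqp4, the water channel, stood at 295, 268, 286, 264, 292 and 525 CPM, and Gja1, a gap junction protein, at 425 to 499 CPM in all libraries. Library 9 was thus the highest for Aqp4 by a wide gap, and no set of libraries stood apart for either gene. None of the 24 tested genes of the membrane, junction and transport list separated, which is near the 1.16% of all tested genes.

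Col6a5, a chain of collagen VI, had 65.6, 91.5 and 122 CPM in libraries 4 to 6 against 2.45, 12.0 and 20.1 CPM, with at most 2.03 CPM in other cells. Sh2d6, which encodes a protein with an SH2 domain, had 60.1, 65.3 and 48.4 CPM against 9.78, 8.58 and 16.4 CPM. Both rest on few UMIs, 10 to 53 per library in the higher set, and Sh2d6 lost its call with a minimum of 5 UMIs of the rule's genes. Rfxap, a subunit of the RFX complex that acts at MHC class II promoters, had 39.2 to 58.8 CPM against 7.34 to 12.8 CPM. Col6a5, Sh2d6 and Rfxap reached 50 CPM through libraries 4 to 6 alone, so their calls are a description. Gm42418 and AY036118, loci known to overlap ribosomal RNA sequence, were higher in libraries 4 to 6 as well, at 730 to 913 CPM against 197 to 228 CPM for Gm42418, beside 375 to 494 and 164 to 260 CPM in the other cells.

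In the other direction 1500015O10Rik, which encodes the secreted peptide precursor augurin, had 175 (120 to 247), 170 (111 to 249) and 249 (204 to 300) CPM in libraries 4 to 6 and 934 (843 to 1033), 910 (834 to 991) and 728 (678 to 780) CPM in libraries 7 to 9. Its level in other cells was 5.34 to 54.2 CPM in libraries 4 to 8 and 351 CPM in library 9, the library with the choroid plexus markers. Gins1, a subunit of the DNA replication helicase, had 4.61 to 6.53 CPM against 45.6 to 85.6 CPM, so it reached 50 CPM through libraries 7 to 9 alone. Other cells of these libraries held 30.7 to 55.7 CPM of Gins1. Hist1h2al, a histone gene, and the gene models Gm13075, Gm10076 and Gm10320 were the remaining genes of this kind. Reads of such gene models may be shared with near-identical genes, so their counts are uncertain.

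The remaining separating genes were at or below the other cells in at least 1 library of the higher set. Among those higher in libraries 4 to 6 were the hormone genes Gh, Prl and Cga of the pituitary, and Avp, which encodes vasopressin. Hormone genes took 1.49%, 1.26% and 2.32% of the UMIs of ependymal cells in libraries 4 to 6, against 31.7%, 32.3% and 41.0% in the other cells, and 0.00620% to 0.00782% of the UMIs of ependymal cells in libraries 7 to 9. Gh reached 50 CPM through libraries 4 to 6 alone, so its call is a description. Among the 41 genes higher in libraries 7 to 9 were the microglial genes Cx3cr1, P2ry12, C1qa and Csf1r, the endothelial genes Itm2a and Slco1a4, and the pericyte genes Vtn and Higd1b. The 5 pericyte markers summed to 10.9, 45.7 and 11.5 CPM in ependymal cells of libraries 4 to 6. Vtn and Higd1b thus reached 50 CPM through libraries 7 to 9 alone, and their calls are a description. Cx3cr1, P2ry12, Csf1r, Itm2a and Vtn no longer separated the sets without members that held 3 or more UMIs of non-glial brain or vascular markers. Their log2 differences there were −1.71, −1.87, −1.97, −1.47 and −2.98. These genes are themselves among the markers by which those members were removed, so the setting takes out their counts by construction. C1qa (−2.05) and Csf1r (−1.63) no longer separated the sets with a minimum of 5 UMIs of the rule's genes. The 6 microglial markers summed to 62.2 to 163 CPM in ependymal cells of libraries 4 to 6 and 393 to 699 CPM in libraries 7 to 9, while in the other cells they summed to 71.8 to 485 CPM and 2562 to 5529 CPM. The 6 endothelial markers summed to 92.9 to 261 CPM and 403 to 730 CPM in ependymal cells. Their part in the differences was not tested. A total of 110 members held 3 or more UMIs of microglial markers, and 106 of these were in libraries 7 to 9.

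Several abundant genes did not pass the 2-fold limit but had no overlap between the sets. At any size of difference, 821 tested genes (17.7%) had no overlap in favour of libraries 4 to 6. In favour of libraries 7 to 9 there were 412 (8.88%), and both counts include the genes that passed the limit. Apoe, the main apolipoprotein of the brain, had 7864, 10034 and 8118 CPM in libraries 4 to 6 and 2479, 3014 and 4681 CPM in libraries 7 to 9. S100a6, a calcium-binding protein, had 1568, 908 and 1345 CPM against 271, 376 and 632 CPM. Nnat, a small membrane protein, had 5782, 5083 and 5349 CPM against 2802, 3610 and 2488 CPM, beside 2874 to 2927 and 192 to 532 CPM in other cells. Sparc, a matrix protein, had 1137, 1437 and 1338 CPM against 460, 747 and 746 CPM. The lowest library of the higher set exceeded the highest of the other by 1.68-fold for Apoe, 1.43-fold for S100a6, 1.41-fold for Nnat and 1.52-fold for Sparc.

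Tubulins and their partners, which build the microtubules of cilia and cell body, lay in the same direction. Tuba1a had 2940, 2888 and 2615 CPM in libraries 4 to 6 and 1858, 1555 and 1769 CPM in libraries 7 to 9. Tubb4b, the main beta-tubulin of axonemes, had 1716, 1463 and 1410 CPM against 912, 1011 and 1227 CPM, and Tppp3, a microtubule-binding protein, had 1131, 1052 and 1127 CPM against 729, 711 and 752 CPM. The 11 tested genes of this list had a median log2 difference of 0.52, and 9 of the 11 lay above the median of all genes. With totals that leave out hormone, hemoglobin and mitochondrial genes the median was 0.50, and again 9 of 11. Not one of the 11 reached the 2-fold limit. Mitochondrial genes took 4.30%, 4.64% and 2.54% of the UMIs of ependymal cells in libraries 4 to 6 and 7.22%, 7.04% and 10.3% in libraries 7 to 9, and the part of RNA quality in these differences was not tested.

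Higher in libraries 7 to 9 without overlap were Calm2, a calmodulin gene, at 1913, 1672 and 1751 CPM against 2915, 2992 and 2800 CPM, and Efcab10, an EF-hand protein, at 705, 706 and 663 CPM against 1037, 1068 and 1172 CPM. Cst3, the secreted protease inhibitor cystatin C, had 1743, 1947 and 1514 CPM against 3954, 2753 and 3363 CPM. The other cells held more Cst3 than the ependymal cells in libraries 7 to 9, at 11980 to 19724 CPM, whereas Calm2 and Efcab10 were above the other cells in all 6 libraries. Ptgds, which encodes prostaglandin D synthase, an enzyme that makes a sleep-promoting prostaglandin, had 0, 32.7 and 20.7 CPM in libraries 4 to 6 and 179, 297 and 275 CPM in libraries 7 to 9. It was below the other cells of each library, which held 255 to 1823 CPM. Ptgds reached 50 CPM through libraries 7 to 9 alone.

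Of the other abundant secreted and metal-binding proteins, some overlapped between the sets and some did not. Dbi, which encodes the acyl-CoA and diazepam binding protein, took 2.42% of the UMIs of ependymal cells and 0.0986% of those of other cells, and stood at 23773, 24230, 26219, 23976, 23064 and 24266 CPM. Mt3, a metallothionein of the brain, stood at 9914, 11243, 12297, 8473, 11007 and 10065 CPM, and both overlapped. Mia, a small secreted protein, had 1984 to 2045 CPM in libraries 4 to 6 and 2357 to 2911 CPM in libraries 7 to 9. Clu, the chaperone clusterin, had 2320 to 2646 CPM against 1769 to 2247 CPM. Neither gene overlapped, but the sets overlapped for Clu with a minimum of 5 UMIs and without members of non-glial brain or vascular classes. Hdc, which encodes the enzyme that makes histamine, stood at 465, 353, 426, 355, 257 and 288 CPM, against 6.94 to 28.4 CPM in other cells. Of the 23 tested genes of the secreted protein list, which does not hold 1500015O10Rik, Ptgds separated, beside 1.16% of all tested genes.

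The members were set beside 1465 cells of the same libraries with 3 or more UMIs of the astrocyte genes Slc1a2, Slc1a3, Gja1 and Aqp4 and none of the rule's genes, a class set after the data had been seen. Sox9, a transcription factor of glial cells, stood at 685 to 747 CPM in ependymal cells and 232 to 367 CPM in these astrocyte-marker cells, and S100b at 873 to 1571 CPM and 87.2 to 319 CPM. Vim, an intermediate filament protein, stood at 338 to 618 CPM and 66.4 to 112 CPM. Aldoc, an enzyme of glycolysis, ran the other way, at 80.7 to 307 CPM in ependymal and 1220 to 4129 CPM in astrocyte-marker cells. So did Glul, glutamine synthetase, at 143 to 386 CPM and 683 to 2932 CPM. The r of log2(CPM + 10) between both classes of the same library was 0.553 to 0.697, in each library below the r between members and all other cells (0.596 to 0.733). The astrocyte-marker profiles rest on only 53 to 441 cells per library, against 19687 other cells in all. A profile of fewer counts can have a lower r, so the order of these values is no ranking of likeness, and the part of depth was not tested.

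Some genes varied more within each set than between them. Tsc22d3, a glucocorticoid-induced leucine zipper gene, stood at 623 (514 to 748), 1052 (896 to 1227), 617 (546 to 696), 396 (337 to 462), 1109 (1025 to 1198) and 570 (526 to 617) CPM in libraries 4 to 9. Libraries 5 and 8 were thus above all others. Glul stood at 186, 359, 143, 179, 386 and 233 CPM and Mt1, a metallothionein, at 11193, 13876, 12226, 11114, 18163 and 12270 CPM, with libraries 5 and 8 again the highest. Rbm3, a cold-inducible RNA-binding protein, was lowest in the same libraries, at 268, 170, 205, 286, 103 and 201 CPM. Its interval in library 5 (111 to 249) overlapped that of library 6 (165 to 252). Summed with Cirbp, the other gene of its list, it stood at 344, 281, 276, 411, 180 and 286 CPM. By that sum library 5 was not the lowest of libraries 4 to 6. In the other cells Tsc22d3 stood at 167, 277, 134, 557, 608 and 461 CPM, so libraries 5 and 8 were the highest of their set there too. These patterns were noticed after their values had been seen, and with 1 library per value and no condition assigned, no test was made.

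Fos, an immediate early gene, stood at 43.7, 39.2, 39.2, 22.0, 22.3 and 114 CPM, against 228 to 811 CPM in the other cells, and 8 of the 9 tested immediate early genes were at least 2 times lower than in other cells, against 3.02% of all 4638 tested genes. The ninth, Jund, was 2.02 times as high in ependymal cells pooled over the libraries (10 CPM added to both), with 525 to 1060 CPM against 224 to 554 CPM. Library 9 was the highest for Fos, with an interval of 94.9 to 136. Hspa1a, an inducible chaperone, ran from 8.58 to 74.8 CPM. Hsp90aa1, a chaperone that is also made without stress, stood at 2675 to 4612 CPM, against 266 to 420 CPM in other cells. Of the clock output genes, Dbp stood at 492, 438, 371, 408, 333 and 236 CPM and Nr1d1 at 44.6 to 98.0 CPM.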

How the data were processed

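Libraries were made with the 10x Chromium version 2 chemistry. The authors aligned reads to GRCm38 with Cell Ranger 2.2.0 (version from the submitters' processing notes) and deposited its filtered output, whole-number UMI counts per gene and cell without normalization, for 18634 genes. The annotation release is not given in the sources used here. Counting uses 3′ ends, and genes that share sequence can split or lose reads. No doublet caller was applied, and members with UMIs of other cell types were handled as an alternative.

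UMIs were summed over members in each library and scaled to CPM. Sums carry exact Poisson and shares exact Clopper-Pearson intervals, at 95% and for counting error only. Genes of at least 50 CPM in 1 library were tested for separation of the sets by range, with 10 CPM added and a limit of 2-fold; there is 1 library per condition and no p-value. Ependymal cells held 153073 to 1096463 UMIs per library. The genes named are members of gene lists that reached 50 CPM, the 12 genes of at least 500 CPM with the highest ratio to other cells, and up to 10 separating genes per direction with the largest gap; Nkx2-1, Rax, Slc14a2, Sh2d6, Rfxap, 1500015O10Rik, Gins1, Hist1h2al, Gm10076 and Gm10320 were named after their values were seen. The members and lists were chosen with earlier results of these data known. Promoter windows are from RefSeq. Analyses ran in Python 3.11.15 with pandas 2.3.3, scipy 1.17.1, numpy 2.4.6 and matplotlib 3.10.9.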

Additional observations from a re-analysis of the deposited data

Results flagged for a closer look

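The growth hormone gene Gh gave a signal among ependymal cells that no comparison of cilia or ventricular genes addressed. It took 1.25% of the UMIs of ependymal cells in library 4, 1.20% in library 5 and 2.05% in library 6, against 26.4%, 30.0% and 34.6% of the UMIs of the other cells there. In libraries 7 to 9, 1 UMI of Gh was counted among 2087974 UMIs of ependymal cells. At least 3 UMIs of pituitary endocrine markers were held by 110 of 112, 111 of 141 and 171 of 171 ependymal cells of libraries 4 to 6.

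Hemoglobin in the ependymal cells of library 4 took 0.554% of UMIs, above the 0.210% of the other cells, but 98.2% of those 1014 UMIs lay in 2 cells. The hemoglobin UMIs outside those 2 cells made up 0.00984% of all UMIs of the ependymal cells of library 4. In library 7 the 2 highest cells held 8.84% of the hemoglobin UMIs, and a UMI was found in 142 of 143 ependymal cells.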

How the results depend on the processing

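The share of ependymal cells over the 6 libraries, 6.59%, was 7.34% with a minimum of 2 UMIs, 5.24% with 5, 12.2% among cells of at least 1000 UMIs and 3.62% at a common 500 UMIs. It was 0.991% without members holding 3 UMIs of any other cell class, which left 197 members. There were 0 in library 6, so that no gene level could be computed there. Without members holding 3 UMIs of non-glial brain or vascular classes, choroid plexus included, the share was 4.24%. This alternative was chosen after seeing the data. The 13 and 41 separating genes became 7 and 10 when only genes above the other cells in each library of the higher set were counted, also chosen after seeing the data. Leaving out each library in turn gave 15 to 22 and 38 to 58 genes, with 22 in favour of libraries 4 to 6 without library 9; 11 to 13 and 35 to 41 were among the 13 and 41. The other settings gave 9 to 19 and 33 to 60, of which 9 to 13 and 24 to 41 were among the 13 and 41; the fewest of the 41 were found without members of non-glial brain or vascular classes (24 of the 33 genes there) and with the mean over cells (30 of 39). Some calls were lost among the genes named above and Dlk1, which is named only here. Lost calls are not listed for every setting. Members of at least 1000 UMIs kept 11 of the 13 and 34 of the 41 calls, and the mean over cells kept 11 and 30. The genes lost in these settings are not named. Without members of non-glial brain or vascular classes, Slc14a2, En1, Hist1h2al, Dlk1, Vtn, Itm2a, Cx3cr1, P2ry12 and Csf1r no longer separated the sets. With a minimum of 5 UMIs Sh2d6, C1qa and Csf1r did not. Of these genes, Vtn, Itm2a, Cx3cr1, P2ry12 and Csf1r are themselves markers of the classes removed in the former setting. The calls are by range, and the log2 difference between the medians of the sets can grow where the call is lost. In the former setting it moved from −1.63 to −1.87 for En1, −1.82 to −2.01 for Hist1h2al, −2.72 to −2.98 for Vtn and −1.67 to −1.97 for Csf1r, which were larger, and from 1.57 to 1.40 for Slc14a2, 1.90 to 1.27 for Dlk1, −2.21 to −1.47 for Itm2a, −2.60 to −1.71 for Cx3cr1 and −2.04 to −1.87 for P2ry12, which were smaller. In the latter it moved from −1.65 to −2.05 for C1qa, from −1.67 to −1.63 for Csf1r and from 1.83 to 1.57 for Sh2d6. Calm2 went from −0.73 to −0.63 and Cst3 from −0.94 to −0.64 without members of non-glial brain or vascular classes, and the sets still did not overlap for either. No named gene that separated the sets changed direction with a minimum of 5 UMIs or without members of non-glial brain or vascular classes. Nor did one with totals that leave out hormone, hemoglobin and mitochondrial genes. For the other settings the direction of single genes is not given here. No paired analysis was possible because each group is 1 library, so that groups share fewer than 2 replicate numbers. Levels near 50 CPM rest on as few as 8 UMIs in library 5, which had the fewest UMIs of ependymal cells.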
